A study of Mus musculus with 12 samples.

Results

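The 10 genes described here handle cellular iron or the lipid peroxides that iron helps to form, out of 55487 genes in the deposited count table. They were taken by name: the transferrin receptor Tfrc and the divalent metal transporter Slc11a2, which bring iron into the cell; the ferritin subunits Fth1 and Ftl1 and the ferritin cargo receptor Ncoa4; the iron exporter Slc40a1; the iron sensors Aco1 and Ireb2; and Acsl4 and Gpx4, which act for and against lipid peroxidation. All 10 were in the table, and all 10 passed the filter on low counts. They were measured in B16F10 cells, a mouse melanoma line of wild-type genotype, by RNA sequencing of 12 libraries.

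B16F10 cells had been kept for 24 h in medium conditioned by mouse bone-marrow-derived macrophages (BMDM), and the 4 groups of 3 libraries differ in what those macrophages had received for 24 h beforehand. In M0 it was control medium (DMEM). In M1 it was 20 ng/ml of INF-γ, as the labels spell it, and in M2 it was 20 ng/ml of IL-4. In the group called TAM, after the tumour-associated macrophages of the series title, it was 75% medium conditioned by B16F10 cells. The labels do not say whether the added cytokine or tumour medium was washed away before the conditioned medium was collected, nor whether separate cultures gave the 3 libraries of each group. The p-values below therefore measure the spread between libraries, which may be technical, and an effect of macrophage products cannot be told apart from one of carried-over additive.

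Iron in blood plasma travels bound to transferrin, which cells take up through the transferrin receptor. SLC11A2 (also called DMT1) then moves the iron out of the endosome into the cytosol. Cytosolic iron that is not used is stored inside ferritin, a shell of heavy (FTH1) and light (FTL1) subunits, and NCOA4 carries ferritin to the lysosome when the store is to be opened. Ferroportin, the product of Slc40a1, is the known iron exporter of vertebrate cells. When iron is scarce, the iron regulatory proteins IRP1 (encoded by Aco1) and IRP2 (encoded by Ireb2) bind RNA hairpins called iron-responsive elements. Such a hairpin in the 5′ untranslated region (UTR) of ferritin or ferroportin mRNA lets the protein block translation, and hairpins in the 3′ UTR of Tfrc mRNA let it protect the message from decay. Messenger RNA counts of Tfrc can thus carry the action of these proteins, whereas their action on ferritin translation is not measured by RNA sequencing. Ferroptosis is a cell death driven by iron-dependent peroxidation of membrane lipids: ACSL4 loads polyunsaturated fatty acids into membrane lipids and GPX4 reduces the lipid peroxides.

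The hairpins are shown because they are features through which the 2 regulatory proteins among the members reach the transcripts of other members. UTRs of the members' GENCODE M21 transcripts (GRCm38, also called mm10) were searched on the transcript strand for CNNNNNCAGTGN, a bulged C, 5 bases and a 6-base loop, followed by 5 bases that pair with the first 5, G-T pairs allowed. Each is printed 5′ to 3′ with 6 flanking bases on either side, 29 bases in all, and the capitals mark the loop. The Tfrc 3′ UTR on chromosome 16, plus strand, held 4 such hairpins, at chr16:32631219-32631247, chr16:32631598-32631626, chr16:32631663-32631691 and chr16:32631710-32631738. The 5′ UTRs held 1 each in Fth1 (chr19:9982732-9982760, plus strand), Ftl1 (chr7:45459779-45459807, minus strand) and Slc40a1 (chr1:45925465-45925493, minus strand).
Tfrc hairpin 1: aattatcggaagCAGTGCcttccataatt
Tfrc hairpin 2: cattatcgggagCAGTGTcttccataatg
Tfrc hairpin 3: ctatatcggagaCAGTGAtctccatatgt
Tfrc hairpin 4: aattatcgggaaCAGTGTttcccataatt
Fth1 hairpin: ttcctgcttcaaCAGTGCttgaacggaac
Ftl1 hairpin: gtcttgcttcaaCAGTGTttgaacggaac
Slc40a1 hairpin: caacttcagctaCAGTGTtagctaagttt
Of the 6 flanking positions, 6 could pair in Tfrc hairpins 1, 2 and 4, 5 in Tfrc hairpin 3, Ftl1 and Slc40a1, and 4 in Fth1. Across 22527 genes with a coding transcript, 0.133% held a match in a 5′ UTR and 0.635% in a 3′ UTR. With at least 4 of the outer pairs required as well, these shares were 0.0266% and 0.0799%. No match to these letters and pairs was found in the UTRs of Slc11a2, Ncoa4, Aco1, Ireb2, Acsl4 or Gpx4. The search covered only this pattern and would miss a hairpin of another form, so no match does not show that an iron-responsive element is absent. A match is a match of letters and possible pairs, not a measured binding site.

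Library totals ran from 15916756 to 20863973 counts. M0 replicate 1 stood apart from the other 11 libraries. Its log2 CPM (counts relative to the library total after TMM scaling) correlated across genes at r = 0.945 to 0.948 with the other M0 libraries, against 0.992 to 0.993 for the other pairs within a group. The share of its counts in 83 ribosomal protein genes was 8.17%, against 3.65% to 4.26% in the other libraries. The mean exon length, weighted by counts, was 4545 bases in M0 replicate 1 and 5817 to 6091 in the rest. The members split the same way: against the mean of the other M0 libraries, its CPM was 3.10 times as high for Ftl1, 2.58 times for Gpx4 and 2.30 times for Fth1, whereas it was 0.275 times for Ncoa4, 0.322 times for Acsl4, 0.391 times for Ireb2 and 0.527 times for Tfrc. Aco1, Slc11a2 and Slc40a1 lay between, at 0.934, 0.867 and 0.634 times. Across the 10 members the ratio fell with the length of the merged exons (Spearman's rho −0.82, a description of 10 genes in the same library). The part of transcript length or RNA quality in these values was not tested. The model was therefore fitted to all 12 libraries and to the 11 that remain without M0 replicate 1, with a common dispersion of 0.0324 and 0.00166. Fold changes below come from the 12-library fit unless the 11-library fit, or the absence of M0 replicate 1, is named.

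**Figure D1:**
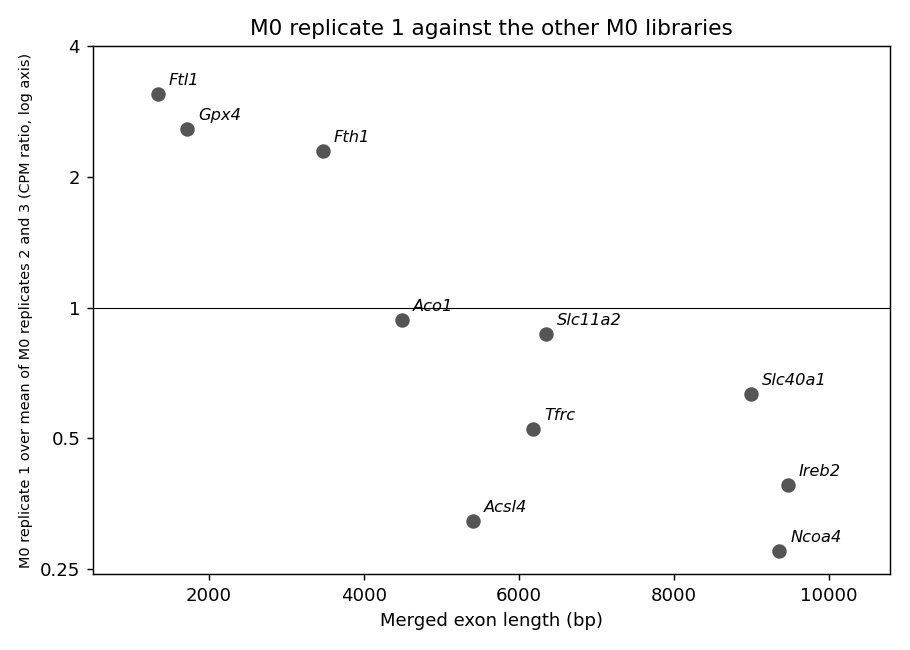
Ratio of the CPM in M0 replicate 1 to the mean of the other M0 libraries (log axis) for each of the 10 members, against the merged exon length of the gene in bases. The 3 members with the shortest exons, Ftl1, Gpx4 and Fth1, lie at 3.10, 2.58 and 2.30, and the other 7 lie below 1.

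All 10 melanocyte markers passed the filter in these libraries of a melanoma line and summed to between 14170 and 21300 CPM, here without TMM scaling. That sum was 21030 to 21300 in M0, 19560 to 19930 in M2, 14170 to 14670 in M1 and 14690 to 15540 in TAM, so it moved with the same groups as several members; its part in the results was not tested. Of 23 macrophage markers, 5 passed the filter and 10 had no count in any library, among them Ptprc, Adgre1 and C1qa. Their sum was 5.27 to 8.08 CPM in M0, 8.06 to 8.48 in M1, 5.67 to 6.72 in M2 and 3.79 to 4.83 in TAM. Lymphocyte and neutrophil markers summed to at most 1.11 and fibroblast, endothelial and red cell markers to between 13.2 and 27.8. In bulk RNA, fewer cells of a kind and less RNA per cell cannot be told apart.

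Relative to length, the ferritin subunits had the highest RNA levels of the 10. In CPM per kilobase of exon, M0 without replicate 1 gave Fth1 676, Ftl1 449, Gpx4 119 and Tfrc 67.5. Aco1 at 16.8, Slc11a2 at 15.9 and Ireb2 at 14.0 followed closely, then Acsl4 at 9.40, Ncoa4 at 4.46 and Slc40a1 at 1.35. The order was the same in M1 except that Slc11a2, at 21.9, lay above Aco1, at 15.2. In TAM, Slc11a2 had the lower position, at 9.78, below Acsl4 at 12.6 and Ireb2 at 13.2.

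**Figure D2:**
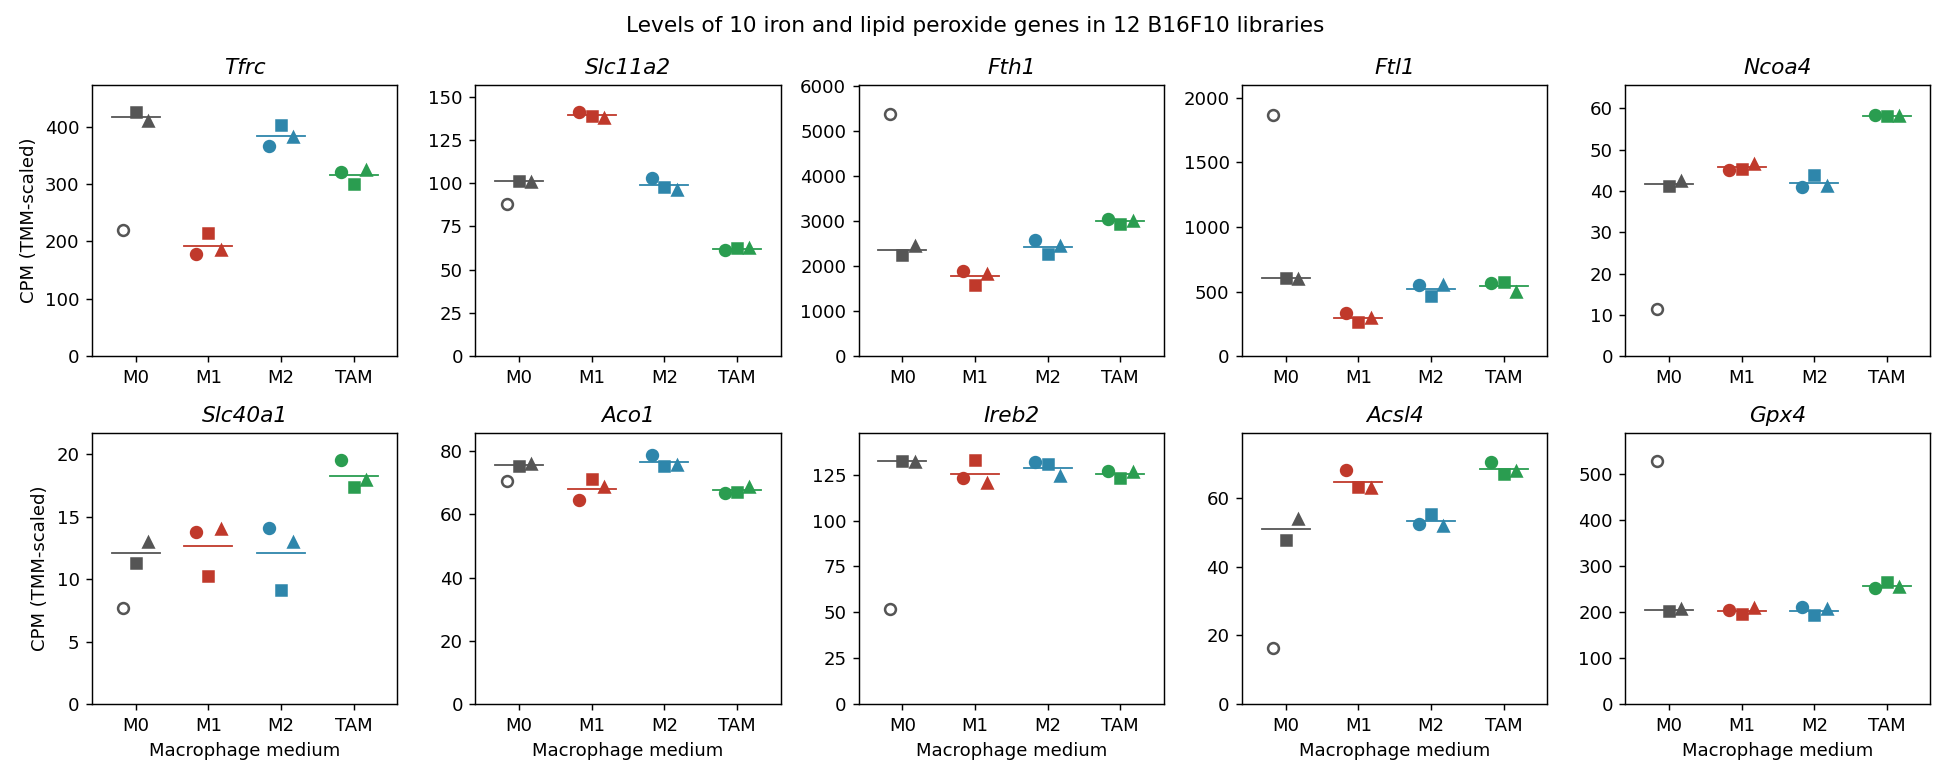
CPM of the 10 members in each library (linear axis), 1 panel per gene. The 4 groups stand side by side, with replicates 1, 2 and 3 as circle, square and triangle. The open circle is M0 replicate 1, and the lines are group means, the M0 line without that library. Slc11a2 lies highest in M1 and lowest in TAM without overlap, Tfrc lies lowest in M1 and Ireb2 spreads least outside M0 replicate 1.

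A gene was called changed when edgeR's quasi-likelihood test gave an adjusted p under 0.05 over all 14591 genes tested. With 12 libraries, 4 of the 10 members were called in M1 versus M0 (1 higher, 3 lower), where 25.7% of all genes were called (12.2% higher, 13.5% lower). In TAM versus M0 it was 2 members (1 higher, 1 lower), with 50.5% of all genes called (23.3% higher, 27.2% lower). Without M0 replicate 1, 14968 genes were tested. Then 6 members were called in M1 (3 higher, 3 lower), beside 47.1% of all genes (24.3% higher, 22.9% lower). In TAM it was 8 members (5 higher, 3 lower), beside 66.7% of all genes (33% higher, 33.7% lower). The median log2 change of the members was 0.07 in M1 and −0.14 in TAM with 12 libraries, against −0.02 over all genes in both, and −0.01 and 0.12 with 11 libraries, against 0.01 and 0.00. With backgrounds this high, the number of members called does not by itself set these 10 genes apart.

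**Figure D3:**
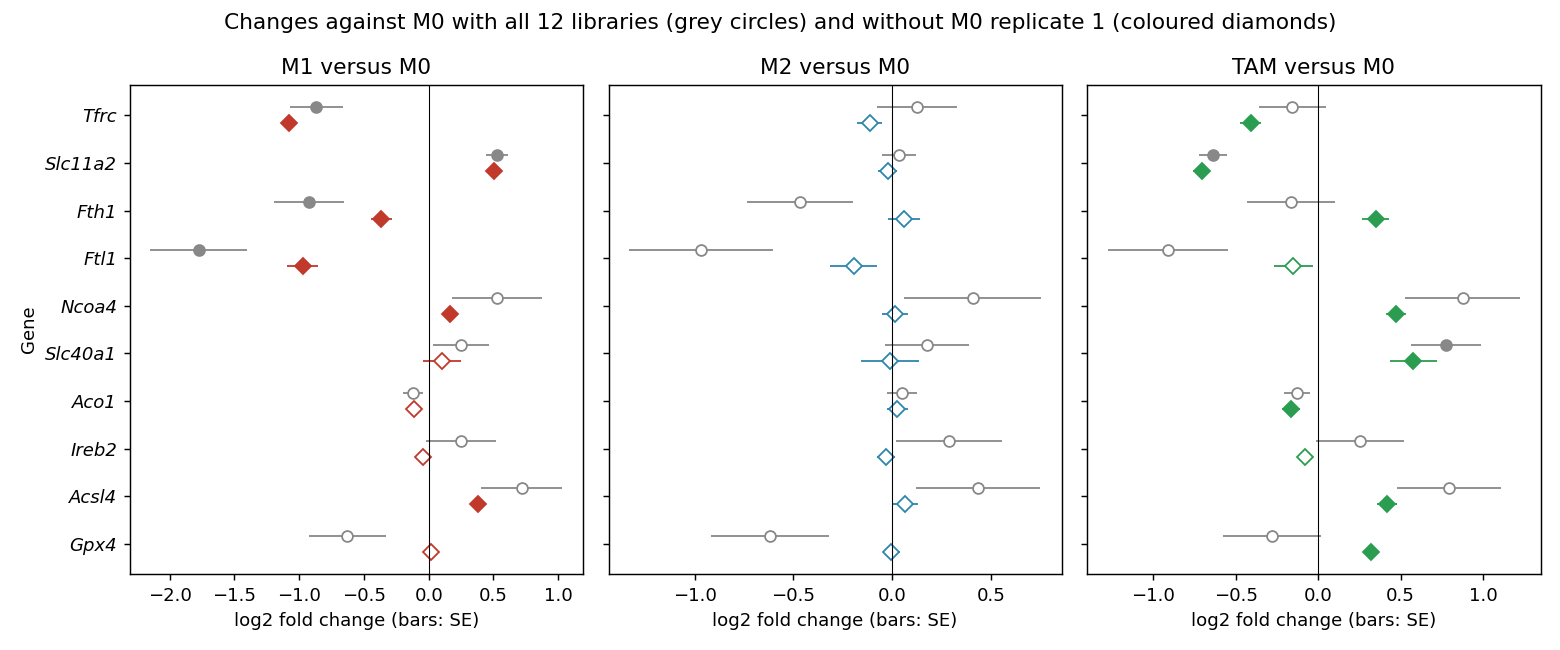
Log2 fold change of each member in M1, M2 and TAM versus M0, with bars for the SE. Grey circles are the fit of 12 libraries and coloured diamonds the fit without M0 replicate 1. Filled points have an edgeR adjusted p under 0.05 and open points do not. The bars of the 11-library fit are shorter throughout, and Slc11a2 is called in M1 and TAM, but not in M2, under both fits.

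In M2 versus M0, 0 of the 10 members were called by edgeR with 12 libraries, beside 0% of all genes in either direction, and DESeq2 also called 0 members. At an unadjusted p under 0.05 there was 1, Ftl1. The 11-library fit also called 0, beside 0.341% of all genes (0.207% higher, 0.134% lower), with 0 at an unadjusted p under 0.05. Its 95% intervals for M2 versus M0 ran from −0.25 to 0.02 for Tfrc, from −0.12 to 0.07 for Slc11a2, from −0.13 to 0.25 for Fth1 and from −0.48 to 0.09 for Ftl1, all on the log2 scale. For Gpx4 the interval was −0.09 to 0.08 and for Acsl4 −0.06 to 0.19. For Slc40a1, the member with the fewest counts, it was wider, −0.31 to 0.29.

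Of the uptake genes, Tfrc (ENSMUSG00000022797, chr16:32608920-32632794, plus strand) encodes the receptor for iron-loaded transferrin. Its CPM was 178, 215 and 186 in M1 replicates 1 to 3, and 220.1, 426 and 410.0 in M0. In M2 it was 367, 402 and 383, and in TAM 322, 299 and 325. All M1 values lay below all others, with the highest M1 library close to M0 replicate 1, and TAM lay between M1 and M2 without overlap. Tfrc was lower in M1 than in M0 by a log2 change of −0.87 ± 0.20 (SE; adjusted p = 0.01032, edgeR, n = 3 per group). It was −1.08 ± 0.06 (adjusted p = 5.698e-10) without M0 replicate 1. With 12 libraries the call was lost when M1 replicate 1 was left out (adjusted p = 0.05208). Against M2, M1 was lower by a log2 change of −0.99 ± 0.20 (edgeR adjusted p = 0.006083).

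In TAM, Tfrc stood above M1 by 0.71 ± 0.20 (log2; edgeR adjusted p = 0.0155), a call that was lost when M1 replicate 1 or 3 or TAM replicate 1 or 3 was left out (adjusted p 0.05838 to 0.06567); with 11 libraries the change was 0.67 ± 0.06 (adjusted p = 3.424e-08). Against M0, the TAM value depended on M0 replicate 1. With it the log2 change was −0.16 ± 0.20 (edgeR adjusted p = 0.5373), and without it TAM was lower, at −0.41 ± 0.06 (adjusted p = 3.023e-05). Against M2 the change was −0.28 ± 0.20 (adjusted p = 0.2917, edgeR) with 12 libraries and −0.29 ± 0.06 (adjusted p = 0.0002674) with 11. The message that carries 4 of the hairpins printed above was therefore lowest in M1 and, in the 11-library fit, also lower in TAM than in M0 and M2.

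Slc11a2 (ENSMUSG00000023030, chr15:100387898-100425072, minus strand) encodes the transporter that moves ferrous iron across the endosomal membrane. Its CPM was 87.7, 101 and 101 in M0, 141, 139 and 138 in M1, 103, 97.8 and 96.0 in M2, and 61.4, 62.5 and 62.5 in TAM. M1 lay above every other library and TAM below every other library, and M0 and M2 overlapped. It rose in M1 by 0.53 ± 0.08 on the log2 scale (edgeR adjusted p = 0.0009529) and fell by 0.64 ± 0.08 in TAM (adjusted p = 9.858e-05). The 11-library values were 0.50 ± 0.05 (adjusted p = 4.112e-13) and −0.71 ± 0.05 (adjusted p = 2.784e-18). The difference between TAM and M1 was −1.17 ± 0.09 (edgeR adjusted p = 1.025e-06), the largest absolute change of a member between those groups.

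Against M2, Slc11a2 was higher in M1 by 0.49 ± 0.08 (log2; edgeR adjusted p = 0.001747) and lower in TAM, at −0.67 ± 0.08 (adjusted p = 7.392e-05). The 5 calls of Slc11a2 held under every alternative tried, each single library left out included. A predicted gene on the opposite strand, Gm5475, had 17 counts in all, 0.0752% of the Slc11a2 counts. The uptake genes thus went opposite ways in M1, Tfrc down and Slc11a2 up. The count ratio of Tfrc to Slc11a2 was 1.26, 1.55 and 1.35 in M1 and 5.24, 4.79 and 5.21 in TAM, against 2.51, 4.20 and 4.07 in M0 and 3.55, 4.11 and 3.99 in M2. M1 lay below and TAM above every other library on this ratio.

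Among the storage genes, Fth1 (ENSMUSG00000024661, chr19:9980598-9985098, plus strand) encodes the ferritin heavy chain, which oxidises iron as it enters the shell. Its CPM was 1898, 1588 and 1823 in M1 and 3053, 2932 and 3000.3 in TAM. M2 gave 2585, 2259 and 2449.6, and M0 gave 5380.0, 2240.2 and 2448. Outside M0 replicate 1, M1 lay below and TAM above every other library. Lower in M1 than in M0 by a log2 change of −0.92 ± 0.27 (edgeR adjusted p = 0.02907), it lost that call when any single M1 or TAM library was left out (adjusted p 0.05219 to 0.1021). Without M0 replicate 1 the change was −0.37 ± 0.08 (adjusted p = 0.005005), well under the 12-library size.

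In TAM versus M0 the direction of Fth1 turned on the same library. The log2 change was −0.16 ± 0.27 (edgeR adjusted p = 0.6307) with 12 libraries, and 0.35 ± 0.08 (adjusted p = 0.004605) with 11. Between TAM and M1, which do not involve M0, Fth1 was higher in TAM by 0.76 ± 0.27 (edgeR adjusted p = 0.04095) with the 12-library spread and by 0.72 ± 0.07 (adjusted p = 1.768e-05) with the 11-library spread. The former call was lost when any single M1, M2 or TAM library was left out (adjusted p 0.0587 to 0.1312), and with no filter on low counts (0.05361). Fth-ps2 and Fth-ps3, processed copies of ferritin heavy chain, had at most 30 counts over the 12 libraries.

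Ftl1 (ENSMUSG00000050708, chr7:45457944-45459884, minus strand) encodes the light chain, which helps the iron core form. Its CPM was 336, 261 and 299 in M1, below all 9 other libraries. It was 1864, 603 and 601 in M0, 554, 465 and 551 in M2, and 563, 572 and 497 in TAM, and M2 and TAM overlapped. Ftl1 fell by 1.78 ± 0.37 in M1 on the log2 scale (edgeR adjusted p = 0.005548) and fell by 0.97 ± 0.12 (adjusted p = 0.0002646) without M0 replicate 1. In TAM versus M0 the values were −0.91 ± 0.36 (edgeR adjusted p = 0.05745) and, with 11 libraries, −0.15 ± 0.12 (adjusted p = 0.308), neither past the threshold. With 12 libraries Ftl1 was called in that comparison by DESeq2 (adjusted p = 0.02913) and when M0 replicate 2 or 3 was left out (edgeR adjusted p = 0.01581 and 0.01578). The 11-library interval ran from −0.43 to 0.13. Ftl1-ps1, a near copy with 1.4% to 2.08% of the Ftl1 counts, was also lower in M1 in the 11-library fit (log2 −0.65 ± 0.16, edgeR adjusted p = 0.0008501), and reads shared between copies could have been divided or dropped.

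Heavy-chain and light-chain counts did not move in step. The ratio of Fth1 to Ftl1 counts was 2.89, 3.72 and 4.07 in M0 and 4.67, 4.86 and 4.45 in M2. It was 5.66, 6.08 and 6.10 in M1 and 5.42, 5.13 and 6.03 in TAM. M1 and TAM lay above every M0 and M2 library and overlapped with each other. In M1 both subunits were lower than in M0 and the light chain by more, while in TAM the light chain stayed near M2 and the heavy chain was higher. These ratios were chosen after the values had been seen and carry no test.

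**Figure D4:**
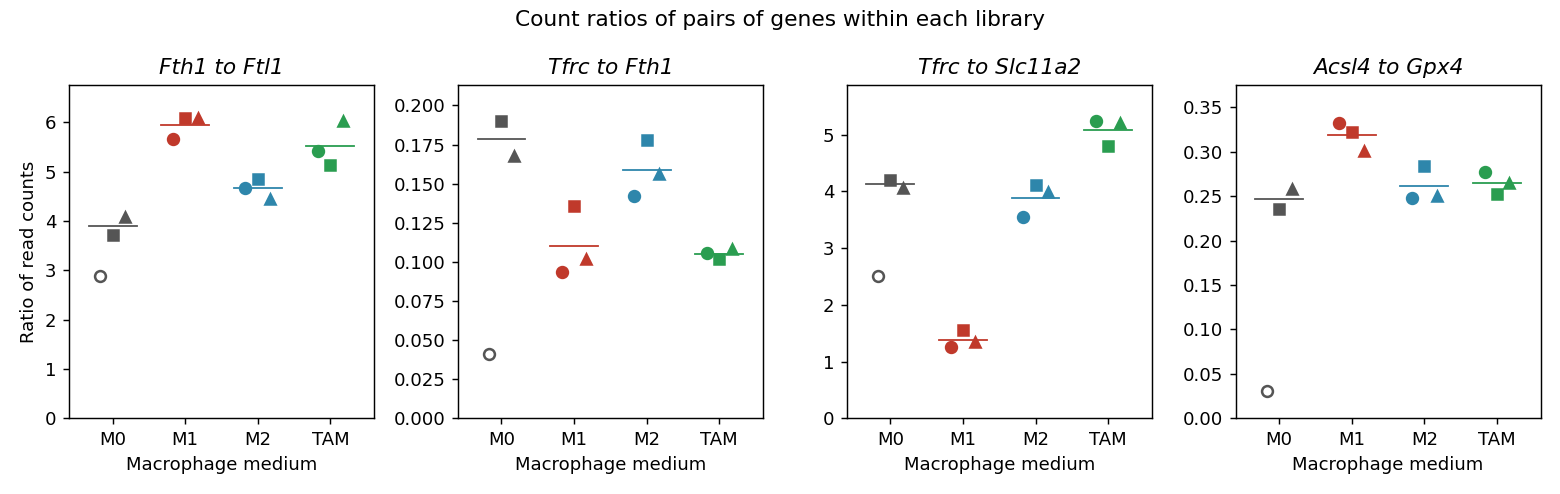
Count ratios between pairs of members in each library, 1 panel per ratio, for the 4 groups, with replicates 1, 2 and 3 as circle, square and triangle, M0 replicate 1 as the open circle and the group mean as a line (M0 without replicate 1). The Tfrc to Slc11a2 ratio is lowest in M1 and highest in TAM, and the Fth1 to Ftl1 ratio is higher in M1 and TAM than in M0 and M2.

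Ncoa4 (ENSMUSG00000056234, chr14:32159865-32179855, plus strand) encodes the receptor that delivers ferritin to autophagosomes. Its CPM was 58.4, 58.0 and 58.0 in TAM, above all other libraries. The other values were 45.1, 45.3 and 46.5 in M1, 41.0, 43.8 and 41.1 in M2, and 11.5, 41.1 and 42.4 in M0. With 12 libraries its TAM versus M0 change of 0.88 ± 0.35 was not called (edgeR adjusted p = 0.05531), though it was with upper-quartile scaling (0.04362), with DESeq2 (0.02422), with a replicate block (0.04921) and when M0 replicate 2 or 3 was left out (0.03622 and 0.02939). Without M0 replicate 1 Ncoa4 rose by 0.47 ± 0.06 on the log2 scale (adjusted p = 3.86e-09), and against M2 by 0.46 ± 0.06 (adjusted p = 2.34e-10, edgeR), where the 12-library change was 0.47 ± 0.34 (adjusted p = 0.3023). In M1 versus M0 the 12-library change was 0.53 ± 0.35 (edgeR adjusted p = 0.2848). With 11 libraries it rose there by 0.17 ± 0.06 (adjusted p = 0.02951), a call that was lost under upper-quartile scaling (0.10, adjusted p = 0.1979). In TAM, then, the receptor for ferritin breakdown and the heavy chain it recognises were both higher than in M0 in the 11-library fit.

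The exporter Slc40a1 (ENSMUSG00000025993, chr1:45908068-45926523, minus strand) had the lowest levels. Its CPM was 19.5, 17.3 and 17.9 in TAM, above every library of the other groups. It was 7.69, 11.3 and 13.0 in M0, 13.8, 10.2 and 14.0 in M1, and 14.1, 9.17 and 13.0 in M2, which all overlapped. Slc40a1 rose in TAM versus M0 by 0.78 ± 0.21 on the log2 scale (edgeR adjusted p = 0.0106), and by 0.58 ± 0.14 (adjusted p = 0.0007585) without M0 replicate 1. This call held with each single library left out. Macrophages also express ferroportin. The macrophage markers summed to 3.79 to 4.83 CPM in the TAM libraries, against 5.27 to 8.08 for M0, and their part in this result was not tested. Against M2 the rise was 0.60 ± 0.21 (edgeR adjusted p = 0.03934), a call that was lost with no filter (0.05849) and when M1 replicate 1 or 3, M2 replicate 2 or 3 or any TAM library was left out. With 11 libraries it was 0.59 ± 0.12 (adjusted p = 0.00014).

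The sensors moved least. Ireb2 (ENSMUSG00000032293, chr9:54863789-54912530, plus strand) encodes IRP2, whose protein is degraded when iron is plentiful. Its CPM was 123, 133 and 120.2 in M1, 132, 131 and 124 in M2, 127, 123 and 127 in TAM, and 51.8, 133 and 132 in M0, and it was called in no comparison under either fit. Without M0 replicate 1 the 95% intervals were −0.13 to 0.05 in M1 and −0.17 to 0.01 in TAM versus M0. Aco1 (ENSMUSG00000028405, chr4:40143081-40198338, plus strand) encodes the protein that is cytosolic aconitase with an iron-sulfur cluster and IRP1 without it. Its CPM was 70.6, 75.3 and 75.9 in M0, 64.5, 71.1 and 68.8 in M1, 78.7, 75.3 and 75.6 in M2, and 66.9, 67.1 and 68.8 in TAM. TAM lay below every M0 and M2 library. No comparison of Aco1 was called by edgeR with 12 libraries. On the same libraries DESeq2 called it lower in TAM than in M2 (log2 −0.16, adjusted p = 0.03537). With 11, it was lower in TAM than in M0, at −0.17 ± 0.05 (log2; edgeR adjusted p = 0.006234) and lower than in M2, at −0.19 ± 0.05 (adjusted p = 0.0004746), small changes beside those of Tfrc and Slc11a2.

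Of the lipid peroxidation genes, Acsl4 (ENSMUSG00000031278, chrX:142317993-142390535, minus strand) encodes the acyl-CoA synthetase that favours arachidonic acid. Its CPM was 68.0, 63.1 and 62.9 in M1 and 70.3, 66.9 and 67.6 in TAM, against 16.4, 47.8 and 53.8 in M0 and 52.4, 55.3 and 51.7 in M2. All M1 and TAM values lay above all M0 and M2 values. With 12 libraries neither change from M0 was called: M1 gave 0.72 ± 0.31 (edgeR adjusted p = 0.1161) and TAM 0.79 ± 0.31 (adjusted p = 0.05455). The TAM change was called with all 12 libraries under RLE scaling (0.0499), upper-quartile scaling (0.04226) and DESeq2 (0.02473), and when M0 replicate 2 or 3 was left out (edgeR adjusted p = 0.04645 and 0.0193). The M1 change was called when M0 replicate 3 was left out (adjusted p = 0.04042). Without M0 replicate 1 it rose by 0.38 ± 0.06 in M1 (adjusted p = 6.711e-07, edgeR) and by 0.42 ± 0.06 in TAM (adjusted p = 3.83e-08). Between TAM and M1 the 11-library interval ran from −0.07 to 0.14.

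Gpx4 (ENSMUSG00000075706, chr10:80047166-80056439, plus strand) encodes the selenoenzyme that reduces phospholipid hydroperoxides. Its CPM was 254, 265 and 255 in TAM, and 205, 196 and 209 in M1. M2 gave 211, 194 and 206, and M0 gave 529.8, 203 and 208. Outside M0 replicate 1, TAM lay above every other library and M0, M1 and M2 overlapped. The TAM versus M0 change was −0.28 ± 0.30 (edgeR adjusted p = 0.4494) with 12 libraries and a rise of 0.32 ± 0.04 (adjusted p = 5.267e-09) with 11, so its direction rested on M0 replicate 1. Against M1 and M2, where that library enters only the spread, the 11-library rises were 0.30 ± 0.04 (edgeR adjusted p = 1.209e-09) and 0.33 ± 0.04 (adjusted p = 1.184e-10). With 12 libraries they were 0.35 ± 0.30 (edgeR adjusted p = 0.3805) and 0.34 ± 0.30 (adjusted p = 0.3929), not called. In M1 versus M0 the 11-library interval was −0.07 to 0.11. With 12 libraries, however, leaving out M0 replicate 2 or 3 made Gpx4 a called fall in M1 (log2 −0.86, adjusted p = 0.04214, and −0.85, adjusted p = 0.04864).

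A processed copy, Gpx4-ps2, was counted at 25.3% to 36.1% of Gpx4, so reads of the gene may have been assigned to it. The CPM of Gpx4 and the copy together was 318.0, 333 and 319.5 in TAM, 262, 265 and 278 in M1, 281, 264.5 and 272 in M2, and 683, 258.5 and 268.5 in M0. TAM was still above every library but M0 replicate 1. The count ratio of Acsl4 to Gpx4 was 0.333, 0.323 and 0.301 in M1, above the 0.277, 0.252 and 0.265 of TAM and the 0.248, 0.284 and 0.251 of M2. In M0 it was 0.0309, 0.236 and 0.258. In the 11-library fit Acsl4 was called higher in M1 and Gpx4 was not called there, whereas both were called higher in TAM.

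Set against each other, M1 and M2 differed in 2 members with 12 libraries (Slc11a2 higher, Tfrc lower in M1), beside 17.2% of all genes (9.72% higher, 7.5% lower). With 11 libraries it was 7 (3 higher, 4 lower), beside 48.3% (24.8% higher, 23.5% lower). TAM and M1 differed in 3 members (Tfrc and Fth1 higher, Slc11a2 lower in TAM), beside 43% of all genes (19.8% higher, 23.3% lower). With 11 libraries it was 7 (6 higher, 1 lower), beside 70.1% (32.4% higher, 37.7% lower). TAM and M2 differed in 2 members (Slc40a1 higher, Slc11a2 lower), beside 43.2% of all genes (20.7% higher, 22.6% lower). With 11 libraries it was 8 (5 higher, 3 lower), beside 69.5% (34.2% higher, 35.3% lower). The median log2 change of the members was 0.35 in TAM versus M1 and 0.18 in TAM versus M2, against −0.0004 and 0.0003 over all genes. The comparisons share libraries, so their values are given side by side and no agreement between them is claimed.

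Genes whose group levels most resembled a member's were sought for the 3 members with the widest range of group-median log2 CPM, over 4 groups and 11671 genes with annotated symbols. Slc11a2, with a range of 1.15, was nearest to Ap3m2, Dnase1l1 and Psma4, at root mean square distances of 0.0058, 0.0267 and 0.0349. Tfrc, with a range of 1.14, was nearest to M1ap, Tmem86a and Dstyk, at 0.0390, 0.0441 and 0.0446. Ftl1, with a range of 1.01, was nearest to Rap2b, Zfp423 and Pabpc4, at 0.0474, 0.0484 and 0.0504. With 4 group values, such closeness is a description of these libraries.

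Other genes of the pathways were read from 4 lists that leave out the members. In M2 versus M0, 0 genes of any of these lists were called by edgeR under either fit, and the values below are for M1 and TAM. The counts stand beside backgrounds of 25.7% of all genes called in M1 and 50.5% in TAM with 12 libraries, and 47.1% and 66.7% with 11, and nothing is drawn from them about the lists. Over all genes the median log2 change was −0.02 in M1 and in TAM, and 0.01 and 0.00 with 11 libraries. On the list of iron uptake, storage, export and control, 17 of 29 genes passed the filter. In M1 versus M0, 4 rose and 3 fell, and in TAM versus M0, 8 rose and 4 fell; with 11 libraries it was 6 and 4, and 11 and 4. The list's median log2 change was 0.11 in M1 and 0.43 in TAM, and 0.01 and 0.29 with 11 libraries. Cp, which encodes the ferroxidase ceruloplasmin that loads iron onto transferrin, was 14.2 ± 1.90 CPM in M0 (SD, n = 3), 102 ± 5.17 in M1 and 71.2 ± 6.19 in TAM. Its log2 change was 2.84 ± 0.12 in M1 (edgeR adjusted p = 1.707e-08) and 2.32 ± 0.12 in TAM (adjusted p = 9.41e-08). Of the Steap family genes, Steap1 rose by 0.74 ± 0.17 in M1 (edgeR adjusted p = 0.007725) and by 3.14 ± 0.17 in TAM (adjusted p = 1.827e-07). Steap2 rose by 1.93 ± 0.23 in M1 (edgeR adjusted p = 0.0001445) and by 2.26 ± 0.24 in TAM (adjusted p = 1.904e-05). Steap3, an endosomal ferrireductase that works beside SLC11A2, rose by 0.35 ± 0.08 in M1 (adjusted p = 0.009332, edgeR) and fell by 1.50 ± 0.08 in TAM (adjusted p = 1.859e-07). Steap3 and Slc11a2 were thus both called higher in M1 and lower in TAM. Slc39a14, another iron and zinc importer, rose by 1.92 ± 0.14 in TAM (adjusted p = 1.203e-06, edgeR) and was not called in M1 (0.26 ± 0.13, adjusted p = 0.1699; with 11 libraries 0.14, adjusted p = 0.03499). Scara5, a list member that encodes a ferritin receptor, is named here because of its values. It had the largest falls on the list, by log2 changes of −3.53 ± 0.81 in M1 (edgeR adjusted p = 0.008878) and −3.59 ± 0.81 in TAM (adjusted p = 0.003566). Both SEs were also the largest on the list, so the sizes of these falls are uncertain. Hfe, which encodes a partner of the transferrin receptor, fell by 0.85 ± 0.14 in M1 (adjusted p = 0.001318) and rose by 0.56 ± 0.14 in TAM (adjusted p = 0.005851, edgeR).

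On the list of haem, iron-sulfur cluster and mitochondrial iron genes, 30 of 31 passed the filter. In M1, 2 rose and 4 fell, and in TAM, 3 rose and 10 fell; with 11 libraries it was 7 and 7, and 8 and 13. The 6 calls in M1 became 2 without M1 replicate 1, 3 without M1 replicate 3, and 14, 12 and 11 without M0 replicates 1, 2 and 3. The median log2 change was −0.14 in M1 and −0.18 in TAM, and −0.01 and 0.01 with 11 libraries. Hmox1, which encodes the haem oxygenase that frees iron from haem, was 105 ± 24.7 CPM in M0 and 1542 ± 20.5 in TAM (SD, n = 3), a rise of 3.87 ± 0.17 (edgeR adjusted p = 4.346e-08). Its M1 change was 0.19 ± 0.15 (adjusted p = 0.3806, edgeR) with 12 libraries and a called rise of 0.44 (adjusted p = 0.001951) with 11. Hmox2, the other haem oxygenase gene, fell in TAM, with a log2 change of −1.08 ± 0.17 (edgeR adjusted p = 0.0003563). Blvra, a biliverdin reductase gene, fell there by 1.35 ± 0.22 (adjusted p = 0.0004893, edgeR). Blvrb, another biliverdin reductase gene, went the other way in TAM, at 0.70 ± 0.31 (edgeR adjusted p = 0.08484), not called with 12 libraries. With 11 libraries Blvrb was a called rise of 1.28 (edgeR adjusted p = 0.0001449). These genes are named because of their values. Isca1, of iron-sulfur cluster assembly, fell by 0.42 ± 0.08 in M1 and fell by 0.50 ± 0.08 in TAM (edgeR adjusted p = 0.002113 and 0.0002492). Other genes of cluster assembly, Iscu, Isca2, Nfs1 and Lyrm4, were not called in TAM with 12 libraries, at log2 changes of −0.21, −0.01, −0.22 and −0.16.

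On the ferroptosis defence list, 30 of 31 genes passed the filter: 6 rose and 3 fell in M1, and 14 rose and 10 fell in TAM (10 and 8, and 16 and 11, with 11 libraries). Its median log2 change was 0.03 in M1 and 0.20 in TAM, and −0.0033 and 0.33 with 11 libraries. Cth, of the transsulfuration route to cysteine, rose in TAM by 3.89 ± 0.14 (edgeR adjusted p = 2.007e-08), and Txnrd1, a thioredoxin reductase gene, by 1.84 ± 0.13 (adjusted p = 1.345e-06). Slc7a11, the cystine importer gene that feeds glutathione synthesis for GPX4, a list member named here because of its values, rose in TAM by 3.96 ± 0.34 (adjusted p = 4.351e-06). Mboat1, a membrane phospholipid remodelling gene on the same list, fell by 2.06 ± 0.14 in TAM (adjusted p = 6.145e-07, edgeR). Mboat2, also on the list, fell in TAM by 1.35 ± 0.11 (edgeR adjusted p = 2.271e-06). In M1, Aifm2, which encodes the ubiquinone reductase FSP1, rose by 0.92 ± 0.17 (adjusted p = 0.002609) and Mboat2 fell by 0.64 ± 0.11 (adjusted p = 0.001147). Beside these, the 11-library rise of Gpx4 in TAM was small.

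On the list of lipid peroxidation and ferroptosis promotion, 20 of 28 genes passed the filter, with 1 higher and 4 lower in M1 and 5 higher and 10 lower in TAM (9 and 5, and 8 and 11, with 11 libraries). The median log2 change was −0.07 in M1, which became 0.06 with 11 libraries, and −0.21 in TAM, −0.19 with 11. The 5 calls in M1 became 0 to 3 when any single M1, M2 or TAM library was left out, the 0 without M1 replicate 1, and 1 with no filter. They became 14, 6 and 7 without M0 replicates 1, 2 and 3, 7 with DESeq2 and 6 with upper-quartile scaling. Dhcr7, which uses up the radical-trapping sterol 7-dehydrocholesterol, fell by 2.78 ± 0.11 in TAM (edgeR adjusted p = 2.919e-08). Fads2, a desaturase gene of polyunsaturated fatty acid synthesis, fell by 1.29 ± 0.09 (adjusted p = 1.072e-06), and Cyb5r1, an electron-donating reductase gene, rose by 3.14 ± 0.22 (adjusted p = 1.009e-06). In M1, Fads1, Hmgb1 and Sat1 fell, with log2 changes of −0.29 ± 0.08, −0.41 ± 0.10 and −0.41 ± 0.10 (edgeR adjusted p = 0.02273, 0.009965 and 0.01477). With 11 libraries Sat1 was at −0.26 (adjusted p = 0.002393).

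**Figure D5:**
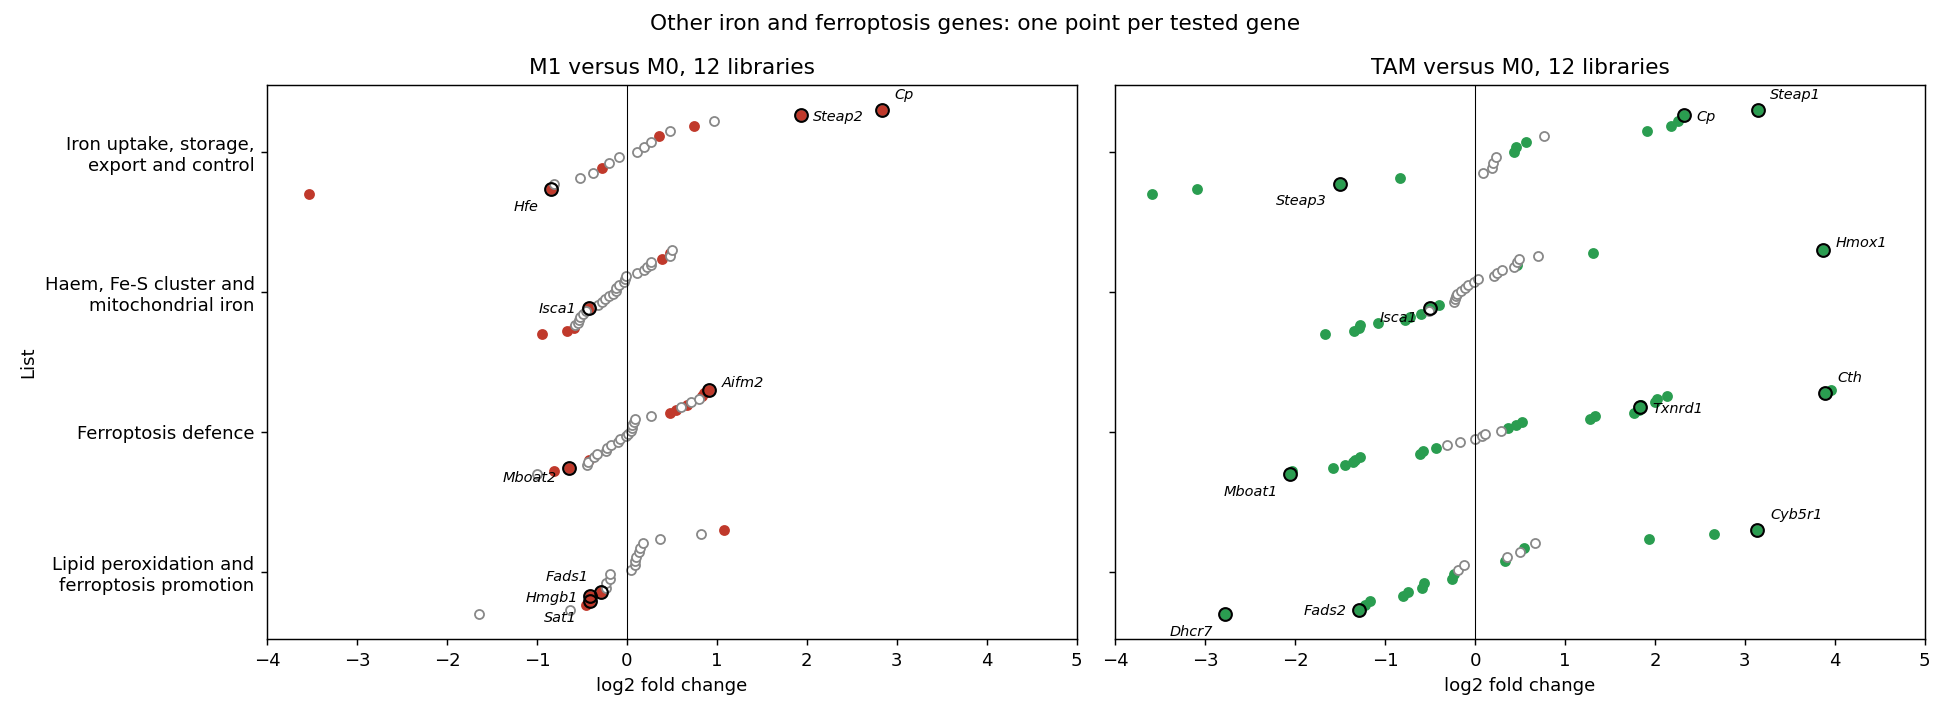
Log2 change of every tested gene on the 4 pathway lists in M1 versus M0 and TAM versus M0, 1 point per gene, filled where the edgeR adjusted p is under 0.05, with genes named in the text for their small adjusted p ringed and labelled. Slc7a11, Cth and Hmox1 lie furthest to the right in TAM, and Cp and Steap2 in M1. Scara5 is the unlabelled point furthest to the left in both.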

How the data were processed

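Total RNA was extracted with Trizol and made into Illumina mRNA libraries, per the labels' protocols. The authors deposited 1 table of raw counts for 55487 genes in 12 libraries; its whole numbers sum to different totals per library. HISAT2 2.0 and mm10 are named, per the submitters' processing notes. The sources used here do not give the read counter, annotation release or strand setting. Every column matched 1 sample title. Symbols, coordinates and exon lengths came from GENCODE M21, which held 55227 of the identifiers.

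R 4.3.3 with edgeR 4.0.16 was used: filterByExpr by group, TMM scaling, 1 robust quasi-likelihood fit over 4 groups, 6 comparisons, and Benjamini-Hochberg adjustment over all genes. Levels are TMM-scaled CPM; SE is the absolute log2 change over the root of F. Alternatives were RLE and upper-quartile scaling, no filter, DESeq2 1.42.0, a replicate block and each library left out; the scaling and block alternatives of the 11-library fit were added after the data were seen. The steps were tested on simulated data. Members and lists were chosen with earlier results of these data known. Named genes were all members, their copies, up to 3 called genes with the smallest adjusted p per list and comparison, of which some are given, and the likeness neighbours. Of the genes that this rule names, 1 is not reported here.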

Additional observations from a re-analysis of the deposited data

How the results depend on the processing

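Over the members, leaving out 1 library gained 32 calls that kept their sign, 21 of them without M0 replicate 1. Without that library, Fth1 and Gpx4 in TAM versus M0 also became called, with a changed sign (adjusted p = 0.004605 and 5.267e-09, edgeR). Calls lost with 1 library left out were 27, all without an M1, M2 or TAM library. Of 32 sign changes, 12 came without M0 replicate 1. Leaving out 1 library at a time gave 2 to 6 members called in M1 versus M0, 2 to 7 in M1 versus M2, 2 to 8 in TAM versus M0, 1 to 7 in TAM versus M1 and 1 to 8 in TAM versus M2. Members called in TAM versus M0 were 4 with upper-quartile scaling and 5 with DESeq2, in TAM versus M1 5 with DESeq2, and in TAM versus M2 1 with no filter. Aco1 was gained in TAM versus M2 with DESeq2 (adjusted p = 0.03537). Sign changes of values that were not called were Gpx4 in M1 versus M2 (0.0195 with RLE scaling and DESeq2, 0.0243 with no filter), Aco1 in TAM versus M1 (0.0315 with upper-quartile scaling) and Ireb2 in TAM versus M1 (−0.0072 with RLE scaling and DESeq2, −0.0615 with no filter). With 1 library left out, log2 changes that changed sign ranged from −0.0403 to 0.45 for Ireb2 and −0.86 to 0.0214 for Gpx4 in M1 versus M0. In M2 versus M0 they ranged from −0.12 to 0.28 for Tfrc, −0.0237 to 0.0694 for Slc11a2, −0.69 to 0.0591 for Fth1, −0.0116 to 0.35 for Slc40a1 and −0.0309 to 0.49 for Ireb2. In TAM versus M0 they were −0.39 to 0.35 for Fth1, −0.0799 to 0.44 for Ireb2 and −0.52 to 0.32 for Gpx4. In M1 versus M2 they were −0.0884 to 0.21 for Slc40a1 and −0.0349 to 0.0268 for Gpx4. In TAM versus M1 they were −0.0674 to 0.007 for Aco1 and −0.0462 to 0.0316 for Ireb2, and in TAM versus M2 −0.0288 to 0.10 for Ftl1. The cause was not tested. With the replicate block, members called were 4, 0 and 3 in M1, M2 and TAM versus M0, 2 in M1 versus M2, 3 in TAM versus M1 and 2 in TAM versus M2; Ncoa4 was gained in TAM versus M0 (0.96, adjusted p = 0.04921, edgeR). Deviations of same-numbered libraries correlated at −0.129 to 0.163 across genes over 18 pairs, 1 of them over 0.1, and 1 library correlated best with its own number, so the numbers were taken not to pair samples. Low counts limit Slc40a1 most.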
